A study of Mus musculus with 6 samples.

Results

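Eef1a1, Eef1b2, Eef1d, Eef1g, Eef2 and Eif5a encode factors of translation elongation, and Eif4a1, Eif4a2, Pabpc1 and Tpt1 encode an initiation helicase pair, the cytoplasmic poly(A) binding protein and the translationally controlled tumour protein. These 10 genes were chosen by name as elongation factors and other TOP mRNAs, by a rule that used no measured value but was set with earlier results of these data known. Disome levels were available for 9 of them, among 8941 genes listed in all, and Eif4a1 was not analysed here. Their identifiers are ENSMUSG00000037742 for Eef1a1, ENSMUSG00000025967 for Eef1b2, ENSMUSG00000055762 for Eef1d, ENSMUSG00000071644 for Eef1g, ENSMUSG00000034994 for Eef2, ENSMUSG00000078812 for Eif5a, ENSMUSG00000022884 for Eif4a2, ENSMUSG00000022283 for Pabpc1 and ENSMUSG00000060126 for Tpt1. All 9 had a mean above 1 RPKM, the filter for testing, which 8355 genes passed. RPKM stands for reads per kilobase of gene model, scaled per library.

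TOP mRNAs carry a 5' terminal oligopyrimidine tract, which begins with a C at the cap and goes on with pyrimidines. Their translation follows the activity of the kinase mTOR, with LARP1 as a repressor that binds the tract, and in liver it is known to follow feeding and the daily cycle. In elongation, eEF1A brings aminoacyl-tRNA to the ribosome, the eEF1B complex recharges eEF1A with GTP, eEF2 drives translocation, and eIF5A relieves ribosomes stalled on difficult peptide bonds such as runs of proline. A disome footprint is the stretch of mRNA protected from nuclease by a pair of ribosomes stacked against each other, and it marks a queue behind a slow or stalled ribosome.

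The tract that names these mRNAs can be looked for at the start sites that RefSeq annotates on GRCm38.p6. The table held 11 start sites for 6 of the 9 genes, namely Eef1a1, Eef1b2, Eef2, Eif5a, Eif4a2 and Tpt1. In the first 50 transcribed bases, a C followed by at least 4 pyrimidines was present at 5 of the 11 sites, in 4 genes, on the transcribed strand. It was also present at 51.3% of all 32851 start sites in the table (58.3% on the other strand, where 9 of the 11 sites held it), so this run by itself sets the genes little apart. Eif5a has several sites, and the longest run of all, of 12 bases, is at an Eif5a site that is not shown. Run length was not tested against disome levels. The sites below are those of the genes with a single site in the table, among which Eef2 has the longest run. Each is 30 bases on the strand of the gene, 5' to 3', with the longest such run in capitals, and a site without a run is shown from its annotated start.
Eef2, chr10:81176636-81176665, plus strand: cgtcagcggtCTCTTCCgccgcagccgccg
Eef1b2, chr1:63176851-63176880, plus strand: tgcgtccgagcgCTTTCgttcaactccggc
Tpt1, chr14:75845276-75845305, plus strand: cggtgacgtagccgagcgtgCCCTCTatat
Eef1a1, chr9:78481695-78481724, minus strand: ttcccgagggtgggggagaacggtatataa
Eif4a2, chr16:23107468-23107497, plus strand: aggagcagggcggccgaggagcgcggcgcg
The run of Eef2, CTCTTCC, began at transcribed base 16 of the annotated RNA, and these 7 letters were found at 0.779% of all start sites on the transcribed strand and at 1.11% on the other strand. The 7 letters were copied from the Eef2 site, so their share does not show whether that site is unusual. The share of sites with any run that long was not computed. Where transcription begins in liver was not measured here, so the distance from the annotated start to the true cap is not known. The absence of a run in Eef1a1 and Eif4a2 says only that these letters are not in the annotated window.

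The 6 libraries came from livers of male C57BL/6JRj mice aged 11 to 12 weeks, held under 12 h of light and 12 h of dark. Mice were killed at 3 zeitgeber times (ZT, counted in hours from lights on), ZT0, ZT2 and ZT12. Each time point had 2 libraries, each made from pooled lysates of 2 mice. Recovered reads totalled 6346387 to 12322651 per library, and 4 to 250 genes per library were listed at 0. The ZT2 libraries had the most genes at 0, 97 and 250, and ZT2 replicate 1 had the fewest reads. Cell type markers could not be paired with the identifiers, so the labelled tissue was not checked. In whole liver, fewer cells of a type and less RNA per cell cannot be told apart, and no transcript level or monosome footprint was set against the disomes here. The 2 libraries of a time point were taken as separate pools of mice, and n counts libraries.

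Disome levels of the 9 genes spanned more than 2 orders of magnitude. Eef1a1 was highest, at 1983 RPKM ± 1095 (SD, n = 6), and ranked 69th of the 8941 listed genes. Eif5a followed at 1273 RPKM ± 273 (SD, n = 6), ranked 112th, and Eef2 at 694 RPKM ± 397 (SD, n = 6), ranked 188th. Eif4a2 had 182 RPKM ± 52.9 and Eef1b2 144 RPKM ± 65.1 (SD, n = 6 each), and both were above the 90th percentile of listed genes, which was 117 RPKM. The lower 4 were Pabpc1 at 60.0 RPKM ± 28.3, Eef1d at 39.0 RPKM ± 6.06, Eef1g at 25.2 RPKM ± 12.7 and Tpt1 at 13.3 RPKM ± 5.33 (SD, n = 6 each). The median listed gene had 7.47 RPKM, so even Tpt1 lay above 61.9% of listed genes. Across libraries the range of every gene overlapped that of its neighbour in this order. Within a library the order held in 6 of 6 libraries for each pair of neighbours, except Pabpc1 above Eef1d and Eef1d above Eef1g, which held in 5 of 6 libraries each.

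**Figure D1:**
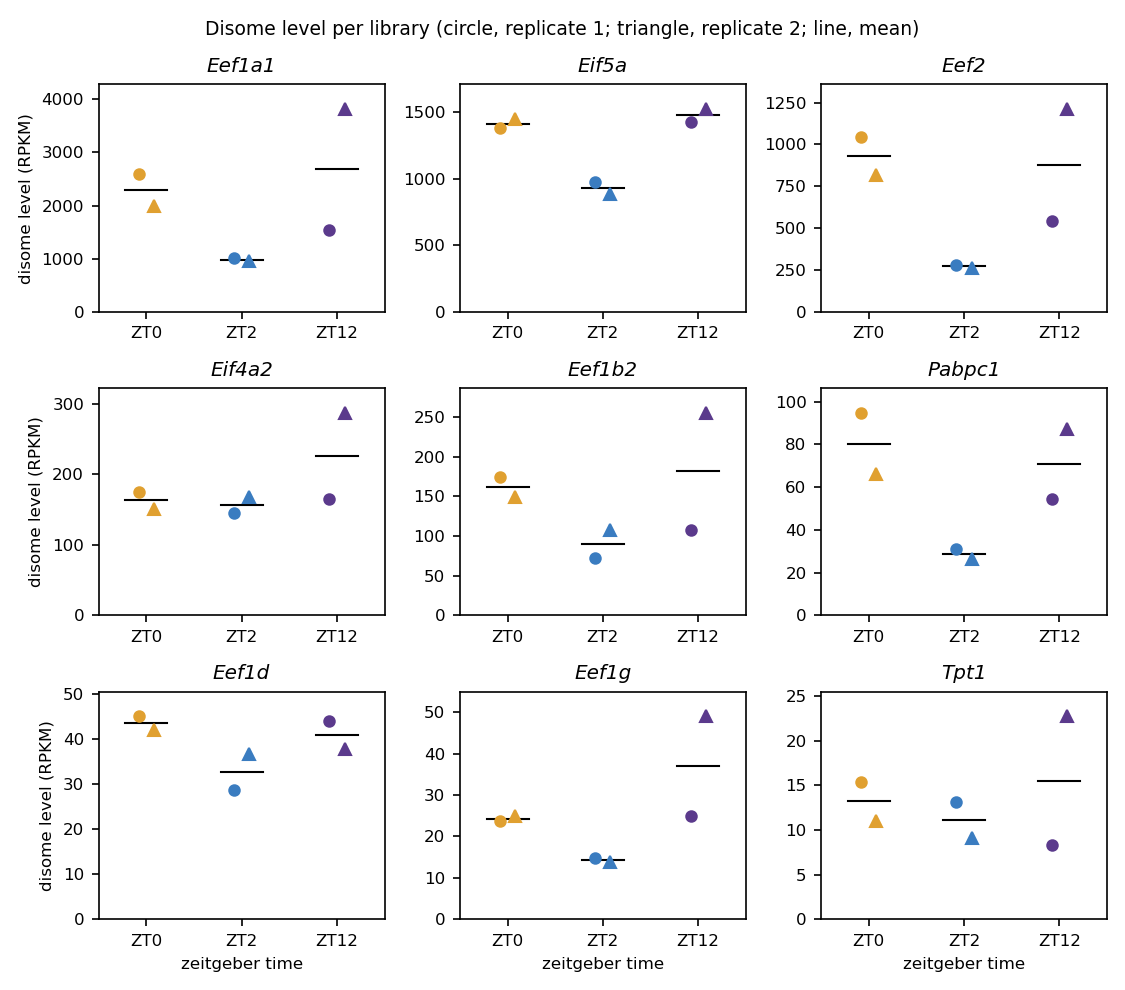
Disome level in RPKM (vertical axes, starting at 0, one scale per gene) at ZT0, ZT2 and ZT12 for the 9 genes; circles are replicate 1, triangles replicate 2 and lines the mean of both. In 7 genes both ZT2 libraries lie below the other 4, and in 7 genes ZT12 replicate 2 is the highest library.

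Both ZT2 libraries lay below all 4 others in Eef1a1, Eif5a, Eef2, Eef1b2, Pabpc1, Eef1d and Eef1g, that is 7 of 9 genes, where 12.8% of all tested genes had this pattern. Limma's adjusted test called 0 of 9 members in each pairwise comparison and in the F test, so this is a description of the libraries. The exceptions were Eif4a2 and Tpt1.

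Among the elongation factors, Eef1a1 (chromosome 9, 78478453 to 78481724, GRCm38.p6), the carrier of aminoacyl-tRNA, had, in RPKM, 2603 and 1984 at ZT0, 1005 and 946 at ZT2, then 1538 and 3822 at ZT12. The ZT2 libraries were close together and lowest, and the ZT12 libraries enclosed those at ZT0. The ZT2 mean was 2.35-fold lower than that at ZT0, and the fitted log2 change was -1.22 ± 0.39 (SE) at an adjusted p of 0.28 in limma. Here and below a fold compares mean RPKM, while a log2 change compares means of log2(RPKM + 1), so the sizes need not match. The ZT12 mean was 2.75-fold higher than that at ZT2, and the fitted log2 change was 1.31 ± 0.39 (SE) at an adjusted p of 0.14 in limma. RefSeq names 2 pseudogene copies after Eef1a1, and copies under other names were not counted. How reads mapping to several places were counted is not given in the sources used here.

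The whole reads behind Eef1a1 are known only up to a factor. The values were met by 4299 to 32700 reads on a gene model of 693 nt, and equally by 8598 to 65400 reads on one of 1386 nt. The longer model, of 462 codons, is the length of the full eEF1A1 protein. The RPKM and all comparisons of them are the same in both cases. Results below from voom, which works on reads, used the lower numbers for Eef1a1 and were not repeated with the higher.

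The 3 subunits of the eEF1B exchange complex were each lowest in the ZT2 libraries. Eef1b2, the alpha subunit that catalyses nucleotide exchange, had, in RPKM, 175 and 149 at ZT0, 72.5 and 107 at ZT2, then 108 and 255 at ZT12. Its second ZT2 library and its first ZT12 library differed by less than 1 RPKM (107.4 and 107.6 RPKM), so the groups only just failed to overlap. The log2 change of Eef1b2 at ZT2 against ZT0 was -0.86 ± 0.39 (SE) and that at ZT12 against ZT2 was 0.90 ± 0.39 (SE), at adjusted p of 0.39 and 0.27 in limma. Eef1g, the gamma subunit that anchors the complex, had, in RPKM, 23.6 and 24.9 at ZT0, 14.8 and 13.8 at ZT2, then 24.9 and 49.0 at ZT12. Its libraries at ZT0 and at ZT2 were tightly grouped, while those at ZT12 were 1.97-fold apart. The log2 change at ZT2 against ZT0 was -0.72 ± 0.31 (SE) and that at ZT12 against ZT2 was 1.24 ± 0.31 (SE), at adjusted p of 0.37 and 0.10 in limma.

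Eef1d, the delta subunit and a second exchange factor, had the smallest range of the 9 genes, 1.57-fold between its highest and lowest library. It had, in RPKM, 45.0 and 41.9 at ZT0, 28.6 and 36.6 at ZT2, then 44.0 and 37.8 at ZT12. It was the only member whose second ZT12 library was below the first. The log2 change of Eef1d was -0.41 ± 0.20 (SE) at ZT2 against ZT0 and 0.32 ± 0.20 (SE) at ZT12 against ZT2, at adjusted p of 0.42 and 0.44 in limma. The recovered gene model of Eef1d was 1980 nt long, or 660 codons, which is the long form of the protein known from alternative splicing. Which form the ribosomes were on was not tested, and the RPKM of Eef1d is given per length of the long form. The RPKM of Eef1d over that of Eef1g was 1.68 to 2.66 in the ZT0, ZT2 and first ZT12 libraries and 0.772 in ZT12 replicate 2.

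Eef2 (chromosome 10, 81176631 to 81182509), the translocase and the substrate of the kinase eEF2K, had the widest range of the 9 genes, 4.60-fold. It had, in RPKM, 1047 and 819 at ZT0, 279 and 264 at ZT2, then 544 and 1213 at ZT12. The ZT2 libraries were 1.06-fold apart and reached at most 0.513 times the level of any other library. The ZT2 mean was 3.44-fold lower than the ZT0 mean, and the fitted log2 change was -1.77 ± 0.35 (SE) at an adjusted p of 0.19 in limma. Only 0.479% of tested genes had a more negative log2 change in this comparison. The ZT12 mean was 3.24-fold higher than the ZT2 mean, and the fitted log2 change was 1.58 ± 0.35 (SE) at an adjusted p of 0.077 in limma. These values rested on 4436 to 38539 recovered reads per library. At ZT2 the exact 95% Poisson intervals of replicates 1 and 2 were 271.0 to 287.5 RPKM and 256.5 to 270.8 RPKM. They nearly touched but did not overlap, so the replicates differed by more than counting error at that level.

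Eif5a (chromosome 11, 69916712 to 69921958), the hypusinated factor that acts at stalled ribosomes, was the most repeatable of the abundant members. It had, in RPKM, 1379 and 1450 at ZT0, 973 and 882 at ZT2, then 1428 and 1526 at ZT12. The replicates of each time point were at most 1.10-fold apart, and the ZT0 and ZT12 libraries overlapped. The ZT2 mean was 1.52-fold lower than at ZT0, and the fitted log2 change was -0.61 ± 0.15 (SE) at an adjusted p of 0.21 in limma. The ZT12 mean was 1.59-fold higher than at ZT2, and the fitted log2 change was 0.67 ± 0.15 (SE) at an adjusted p of 0.081 in limma. Its fold differences were smaller than those of Eef2, and the RPKM of Eef2 over that of Eif5a was 0.759 and 0.565 at ZT0, 0.287 and 0.299 at ZT2, then 0.381 and 0.794 at ZT12. The ratio was lowest in both ZT2 libraries, and the difference between the genes was not tested.

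Among the other members, Pabpc1, which coats the poly(A) tail and whose mRNA carries a TOP tract, was, like Eef2, lowest in both ZT2 libraries. It had, in RPKM, 94.9 and 65.9 at ZT0, 31.1 and 26.2 at ZT2, then 54.5 and 87.3 at ZT12. The ZT2 libraries lay well below the rest, and the ZT0 and ZT12 libraries overlapped. The ZT2 mean was 2.81-fold lower than at ZT0, and the fitted log2 change was -1.44 ± 0.28 (SE) at an adjusted p of 0.19 in limma. The ZT12 mean was 2.47-fold higher than at ZT2, and the fitted log2 change was 1.24 ± 0.28 (SE) at an adjusted p of 0.083 in limma.

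Eif4a2, an RNA helicase of the cap-binding complex and a close paralog of Eif4a1, was not set apart at ZT2. It had, in RPKM, 175 and 151 at ZT0, 145 and 168 at ZT2, then 164 and 287 at ZT12. All libraries but ZT12 replicate 2 lay within 145 to 175 RPKM. The log2 change at ZT2 against ZT0 was -0.059 ± 0.27 (SE), at an adjusted p of 0.94 in limma, which does not show that the levels were alike. Reads that match both paralogs could have been assigned to either gene, and how they were counted is not given in the sources used here. The recovered gene model was 1228 nt, which is no whole number of codons.

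Tpt1, which encodes the translationally controlled tumour protein, had, in RPKM, 15.4 and 11.1 at ZT0, 13.2 and 9.05 at ZT2, then 8.29 and 22.8 at ZT12. Its lowest and its highest library were both at ZT12, and no time point was separated from another. Tpt1 rested on only 36 to 145 recovered reads per library. With exact Poisson intervals at 95%, which cover counting error only, ZT12 replicate 2 at 22.8 RPKM (19.2 to 26.8) still stood apart from ZT12 replicate 1 at 8.29 RPKM (6.26 to 10.8). RefSeq names 7 pseudogenes after Tpt1, the most of any member, though pseudogenes under other names were not counted. The level of Tpt1 is therefore uncertain where reads were shared.

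**Figure D2:**
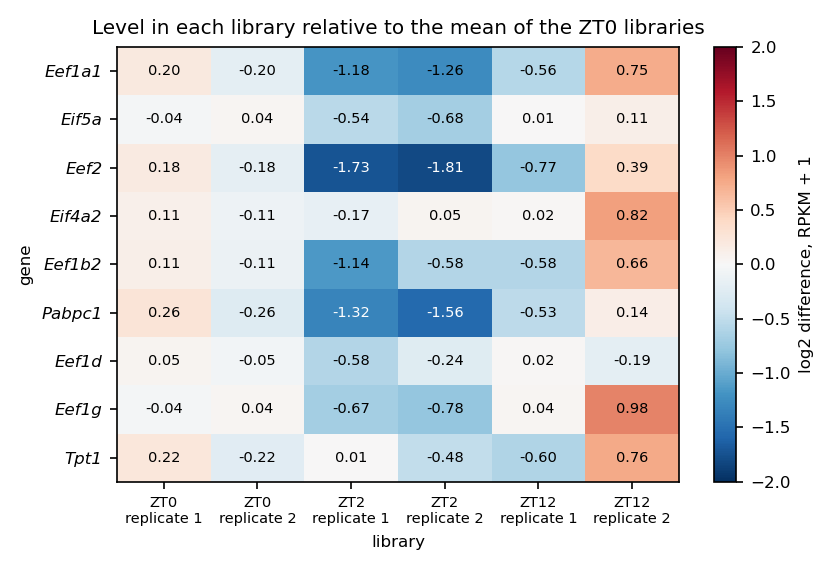
Log2 difference of log2(RPKM + 1) in each library (columns, in order of time) from the mean of the 2 ZT0 libraries, for the 9 genes (rows, by mean level); blue is lower and red higher, and each cell prints its value. The ZT2 columns are lowest for Eef2, at -1.73 and -1.81, and the ZT12 replicates differ in colour for most genes.

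The first comparison, ZT2 against ZT0, covered the first hours after lights on. All 9 genes had a negative log2 change, with a median of -0.72, while the median over all 8355 genes tested was -0.040 and 53.6% of them were negative. No member passed limma at an adjusted p of 0.05 (0 of 9), and 0.0239% of all tested genes did. At an unadjusted p of 0.05 limma counted 4 members, Eef1a1, Eef2, Eif5a and Pabpc1, all lower at ZT2, where 8.27% of all tested genes were lower at that level. With voom on recovered reads, Eef2 passed (1 of 9, adjusted p = 0.047), and 0.108% of all tested genes did. Pabpc1 had an adjusted p of 0.055 there. Over all alternatives tried, the adjusted p at ZT2 against ZT0 ran from 0.047 to 0.94 for Eef2 and from 0.055 to 0.94 for Pabpc1. The ZT2 libraries did not overlap those at ZT0 and were lower in 7 members, as they were in 24.9% of tested genes.

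The second comparison, ZT12 against ZT2, compared the time of lights off with the early hours of light. All 9 log2 changes were positive, with a median of 0.90, against 0.028 over all genes tested, of which 47.7% were negative. Limma called 0 of 9 members at an adjusted p of 0.05, and 2.06% of all tested genes. At an unadjusted p of 0.05 it counted 5 members, Eef1a1, Eef1g, Eef2, Eif5a and Pabpc1, all higher at ZT12, where 10.0% of all tested genes were higher at that level. The same 5 passed with voom on recovered reads, at adjusted p of 0.0096 for Eef2, 0.019 for Pabpc1, 0.036 for Eif5a, 0.039 for Eef1a1 and 0.048 for Eef1g, while 4.26% of all tested genes did. The limma call depended on single libraries. Without ZT12 replicate 1 it took in Eef2 (adjusted p = 0.035) and Eef1a1 (adjusted p = 0.047), with 0.552% of all genes then tested. Without ZT2 replicate 1 it took in Eif5a (adjusted p = 0.047), with 7.31% of all genes then tested. Over all alternatives the adjusted p at ZT12 against ZT2 ran from 0.0096 to 0.24 for Eef2, from 0.019 to 0.39 for Pabpc1, from 0.036 to 0.38 for Eif5a, from 0.039 to 0.42 for Eef1a1 and from 0.048 to 0.39 for Eef1g. The log2 changes turned on the ZT12 library as well. Without ZT12 replicate 1 and without ZT12 replicate 2 they were 1.97 and 0.66 for Eef1a1, 2.16 and 1.00 for Eef2, 1.71 and 0.76 for Eef1g, 1.52 and 0.28 for Eef1b2, and 0.88 and 0.077 for Eif4a2. Eef1d had 0.15 without ZT2 replicate 1 and 0.49 without ZT2 replicate 2. This comparison and the first use the same ZT2 libraries, so the direction in one is not separate from the direction in the other. Non-overlapping libraries, higher at ZT12, were found in 7 members and in 23.6% of all tested genes.

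The third comparison, ZT12 against ZT0, covered opposite phases of the light cycle. The median log2 change was 0.062 over the members and -0.0072 over all genes tested. Of the 9 changes 3 were negative, and 50.8% of those over all tested genes were. Limma called 0 of 9 members at an adjusted p of 0.05, against 0.946% of all tested genes, and voom called 0 of 9, against 3.39%. At an unadjusted p of 0.05, limma counted 0 members and 14.5% of all tested genes. The ZT12 and ZT0 libraries overlapped in all 9, while in 26.6% of all tested genes they were apart and higher at ZT12 and in 27.8% apart and lower. Eef1g averaged 37.0 RPKM ± 17.0 at ZT12 and 24.3 RPKM ± 0.945 at ZT0 (SD, n = 2 each). Its log2 change of 0.51 ± 0.31 (SE) was the largest of the 9 on that scale, at an adjusted p of 0.51 in limma, and was 0.037 without ZT12 replicate 2. The members' median was 0.66 without ZT12 replicate 1, -0.53 without ZT12 replicate 2 and -0.10 without ZT0 replicate 2, so its direction depended on single libraries at both times. Over the 3 time points together, limma's moderated F test called 0 of 9 members and 1.26% of all genes. The smallest F test adjusted p was 0.087, for Eef2, then 0.088 for Pabpc1. At an unadjusted p of 0.05 the F test counted 5 members, and 18.6% of all genes, and with voom it called 2 members, Eef2 and Pabpc1, and 4.19% of all genes.

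**Figure D3:**
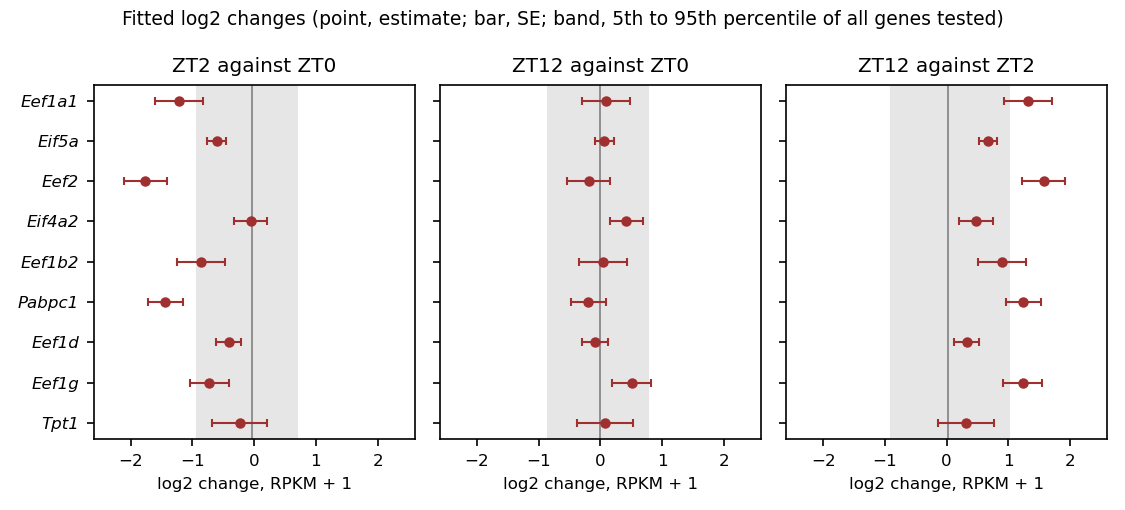
Fitted log2 change (horizontal axis, log2(RPKM + 1), later minus earlier time point) with its SE for the 9 genes in the 3 comparisons; the grey band spans the 5th to 95th percentile of all 8355 genes tested and the grey line is their median. Eef1a1, Eef2 and Pabpc1 lie beyond the band in both comparisons that use ZT2, and no gene does at ZT12 against ZT0.

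The replicates of ZT12 were compared gene by gene. ZT12 replicate 2 was above replicate 1 in 8 of 9 members, with a median log2 difference of 0.95, where that over all tested genes was 0.0. The gap was narrow in Eif5a, with replicates 1.07-fold apart, and in Eef1d, 1.16-fold apart and in the other direction. The difference exceeded 2-fold on this scale in 4 members and in 1.93% of all tested genes. ZT12 replicate 2 was the highest of the 6 libraries in 7 members, and in 20.0% of all tested genes. By contrast, the median log2 difference of the members between replicates was -0.23 at ZT0 and -0.087 at ZT2. Which mice or which step of preparation set the ZT12 libraries apart was not tested.

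The summed level of the 9 genes was, in RPKM, 5557 and 4696 at ZT0, 2562 and 2453 at ZT2, then 3914 and 7301 at ZT12. As a share of each library's summed RPKM this was 0.506% and 0.432% at ZT0, 0.215% and 0.218% at ZT2, then 0.374% and 0.713% at ZT12. The ZT2 libraries agreed closely and had the lowest sums, and the ZT12 libraries had the lowest sum outside ZT2 and the highest of all. Eef1a1, Eif5a and Eef2 together made up 85.3% to 90.6% of the sum.

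**Figure D4:**
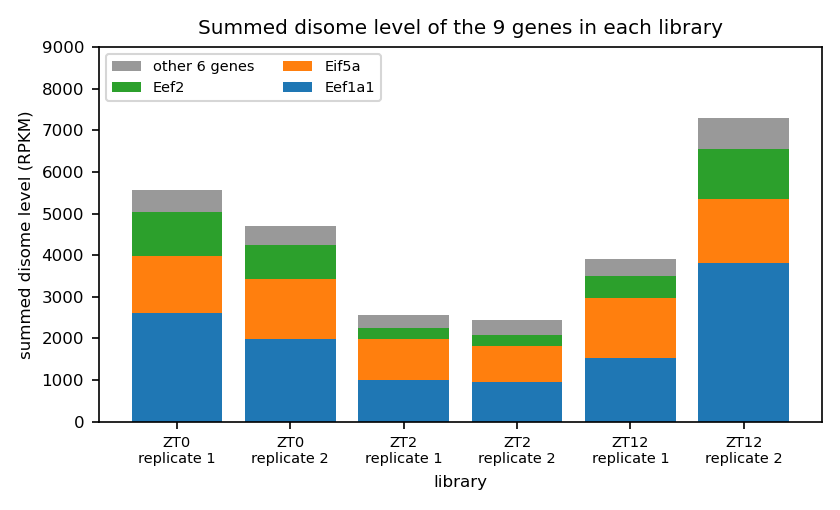
Summed disome level in RPKM (vertical axis, starting at 0) of the 9 genes in each of the 6 libraries, split into Eef1a1, Eif5a, Eef2 and the other 6 genes. The ZT2 bars reach 2562 and 2453 RPKM, and the ZT12 bars 3914 and 7301 RPKM.

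Ratios between members in the same library do not depend on how libraries were scaled. The RPKM of Eef2 over that of Eif4a2 was 5.98 and 5.43 at ZT0, 1.93 and 1.57 at ZT2, then 3.31 and 4.22 at ZT12, so the time points did not overlap. Eef1a1 over Eif4a2 was 14.9 and 13.2 at ZT0, 6.94 and 5.63 at ZT2, then 9.35 and 13.3 at ZT12, where ZT12 overlapped ZT0. Eif5a over Eif4a2 was 7.88 and 9.62 at ZT0, 6.72 and 5.25 at ZT2, then 8.68 and 5.32 at ZT12, where ZT12 overlapped both. Pabpc1 over Eif4a2 was 0.542 and 0.437 at ZT0, 0.215 and 0.156 at ZT2, then 0.332 and 0.304 at ZT12, in the same order as Eef2 over Eif4a2 and without overlap. The ratios of Eef2 and of Pabpc1 to Eif4a2 were highest at ZT0, and their ZT12 values were closer together than the levels of Eef2 themselves. Eef2 over Eef1a1 moved less, with 0.402 and 0.413 at ZT0, 0.278 and 0.279 at ZT2, then 0.353 and 0.317 at ZT12, and the time points did not overlap. Eef1a1 over Eef1b2 stayed within 13.3 to 15.0 in 5 libraries and was 8.81 in ZT2 replicate 2. With 2 libraries per time point, these ratios were not tested. The pairs were picked by hand, and the share of other gene pairs without overlap was not computed. Eif4a2 was not set apart at ZT2, so ratios to it partly repeat the low ZT2 levels of the other genes.

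The members' mean course was compared with those of 1561 other genes whose mean reached 50 RPKM. Over the 6 libraries the closest was ENSMUSG00000057841, with Pearson's r of 0.996 on log2(RPKM + 1), and next ENSMUSG00000030744, with r of 0.993. Neither identifier could be paired with a symbol. ENSMUSG00000057841 had, in RPKM, 386 and 304 at ZT0, 170 and 158 at ZT2, then 274 and 581 at ZT12; it was picked for this course. These correlations describe the libraries, which share their depth and scaling.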

How the data were processed

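Per the labels' protocols, livers were lysed with cycloheximide, lysates of 2 mice were pooled and digested with 650 U RNase I for 45 min, and libraries followed size exclusion and ribosomal RNA depletion. The authors deposited 1 table of RPKM values per library, without header or symbols. Per the submitters' processing notes, the tools included edgeR, StringTie, STAR, Bowtie2 2.3.0, cutadapt and CASAVA 1.82, and the builds mm10 and GRCm38.p2, with no roles. Not given in the sources used here were the annotation, the gene filter and the treatment of multi-mapping reads. RPKM values stepped by whole reads, from which reads and coding lengths were recovered for 8941 genes (100.0%, relative tolerance 5e-13; 95.2% of lengths were multiples of 3). Reads sharing a factor over all libraries can come out too low.

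Limma 3.58.1 (R 4.3.3) was run on log2(RPKM + 1), for genes averaging 1 RPKM or more, with all 6 libraries in 1 fit with 3 residual degrees of freedom, a variance trend, and Benjamini-Hochberg adjustment over 8355 genes, with a threshold of 0.05. Voom used the recovered reads. The labels do not say whether replicate numbers pair the libraries, and the main fit had no block. Deviations from time point means correlated at -0.076, -0.019 and 0.018 between libraries of the same number. This shows no shared pattern over all genes but cannot decide whether libraries were paired.

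The members, lists and tests were chosen with earlier results of these data known. All 10 members were to be named, with the 2 other genes closest in course by identifier. Lists of other translation genes and cell type markers were not tested, as the reference tables pair 0 of the identifiers with symbols; members' symbols are those given with their identifiers. Start site sequences and loci are from RefSeq on GRCm38.p6.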

Additional observations from a re-analysis of the deposited data

How the results depend on the processing

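Limma called 2 genes at ZT2 against ZT0, 79 at ZT12 against ZT0, 172 at ZT12 against ZT2 and 105 by the F test, and counts below keep this order. The counts were 1, 32, 80 and 34 without the variance trend and 9, 283, 356 and 350 with voom on recovered reads. On the 4 libraries compared they were 1, 295 and 39. With the replicate number as a block they were 2, 51, 113 and 76, and 0 members were called. The first count was 6 at a pseudocount of 0.1, and the second was 124 with a filter at 5 RPKM. When each library was left out in turn, the counts ran over 0 to 256, 3 to 300, 5 to 609 and 5 to 630 genes, where a lone library is assumed to vary like the others. Of the 9 members, voom called 1, 0, 5 and 2, and leaving out libraries gave 0 to 2 for ZT12 against ZT2 and 0 elsewhere; a pseudocount of 0.1 or 5, either filter, the other scalings, no variance trend and the 4-library fits called 0.

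The members' median log2 change ranged from -0.75 to -0.67 (ZT2 against ZT0), from -0.53 to 0.66 (ZT12 against ZT0) and from 0.62 to 1.52 (ZT12 against ZT2) when each library was left out. Members lowest in the ZT2 libraries were also counted in settings chosen after seeing the data. Leaving out any library cannot lower this count, so these settings do not test it. The count was 7 without ZT2 replicate 1 (30.6% of all tested genes had the pattern) and 8 without ZT2 replicate 2 (27.1%). Without a ZT0 or ZT12 library it was 7 (15.1% to 16.0%). Of 432 alternative values for single members, 17 changed sign, none of which had passed a test. For ZT12 against ZT0 these lay within leave-out ranges of -0.56 to 0.75 for Eef1a1, -0.58 to 0.66 for Eef1b2, -0.19 to 0.018 for Eef1d, -0.77 to 0.39 for Eef2, -0.53 to 0.14 for Pabpc1 and -0.60 to 0.76 for Tpt1. Eef1d was also at 0.0096 with quantile normalization and 0.0048 with equal summed reads. For ZT2 against ZT0 the ranges were -0.17 to 0.048 for Eif4a2 (0.014 with quantile normalization) and -0.48 to 0.012 for Tpt1, and for ZT12 against ZT2 -0.36 to 0.99 for Tpt1. The causes were not tested. Depth limits mainly Tpt1, with 36 to 145 reads per library.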
